A study of Homo sapiens with 6 samples.

Results

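The genes described here are 10 core genes of the epithelial-mesenchymal transition (EMT), taken by symbol from the 57781 rows of a count table: the epithelial genes CDH1 and EPCAM, the mesenchymal genes CDH2, VIM and FN1, and the EMT transcription factors SNAI1, SNAI2, ZEB1, ZEB2 and TWIST1. All 10 had a row, and 9 of them had enough counts to be tested among 15125 genes. The RNA came from A549, a long-established human line of lung adenocarcinoma (LUAD), labelled NSCLC (non-small cell lung cancer). There were 3 libraries of cells with an empty vector, labelled WT, and 3 of METTL3-knocked down cells carrying short hairpin RNA (shMETTL3). METTL3 is the catalytic subunit of the complex that writes N6-methyladenosine (m6A) into mRNA. The sources used here give no time after knockdown and do not say whether shMETTL3 replicates 1 to 3 carried 1 hairpin or several. The study states in general that its experiments were repeated independently, but the labels do not say that these libraries came from separate cultures. The p-values therefore measure the spread between these libraries, which may be technical.

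In EMT, epithelial cells give up contacts between cells and take on a mesenchymal, motile form. E-cadherin and EpCAM hold epithelial cells together, whereas N-cadherin, the intermediate filament protein vimentin and the matrix protein fibronectin mark the mesenchymal state. Zinc finger and helix-loop-helix factors of the SNAI, ZEB and TWIST families repress epithelial genes, SNAI and ZEB factors by binding E-box motifs, and cells that keep features of both states are said to be in partial EMT (p-EMT).

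In METTL3-knocked down cells, all 3 mesenchymal genes were higher and both epithelial genes were lower, with ZEB1 and ZEB2 also higher and TWIST1 slightly lower. FN1 rose 26.7-fold and EPCAM fell to 15.0% of its vector level, whereas CDH1 kept 66.7% of its vector level. Of the 9 genes tested, 8 were called (edgeR's quasi-likelihood test, adjusted p under 0.05), against 66.6% of all genes tested. Of these, 5 were higher, where 33.7% of all genes were, and 3 were lower, where 32.9% were. With an absolute log2 fold change of at least 1, 6 members were called (5 higher, 1 lower), against 17.6% of all genes. The groups of libraries did not overlap for any of the 9 tested members, against 69.4% of all genes. A call alone therefore says little in this comparison, and sizes are given throughout. The members' median absolute log2 fold change was 2.30, against 0.41 over all genes tested. ZEB2 is in these counts although it passed the filter on low counts only through the shMETTL3 libraries. Without it, 7 of 8 members were called, 4 higher and 3 lower, of which 5 changed by at least 1 on the log2 scale, and the median absolute change was 2.19. In bulk RNA, a change in the mix of cell states and a change within each cell cannot be told apart.

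**Figure D1:**
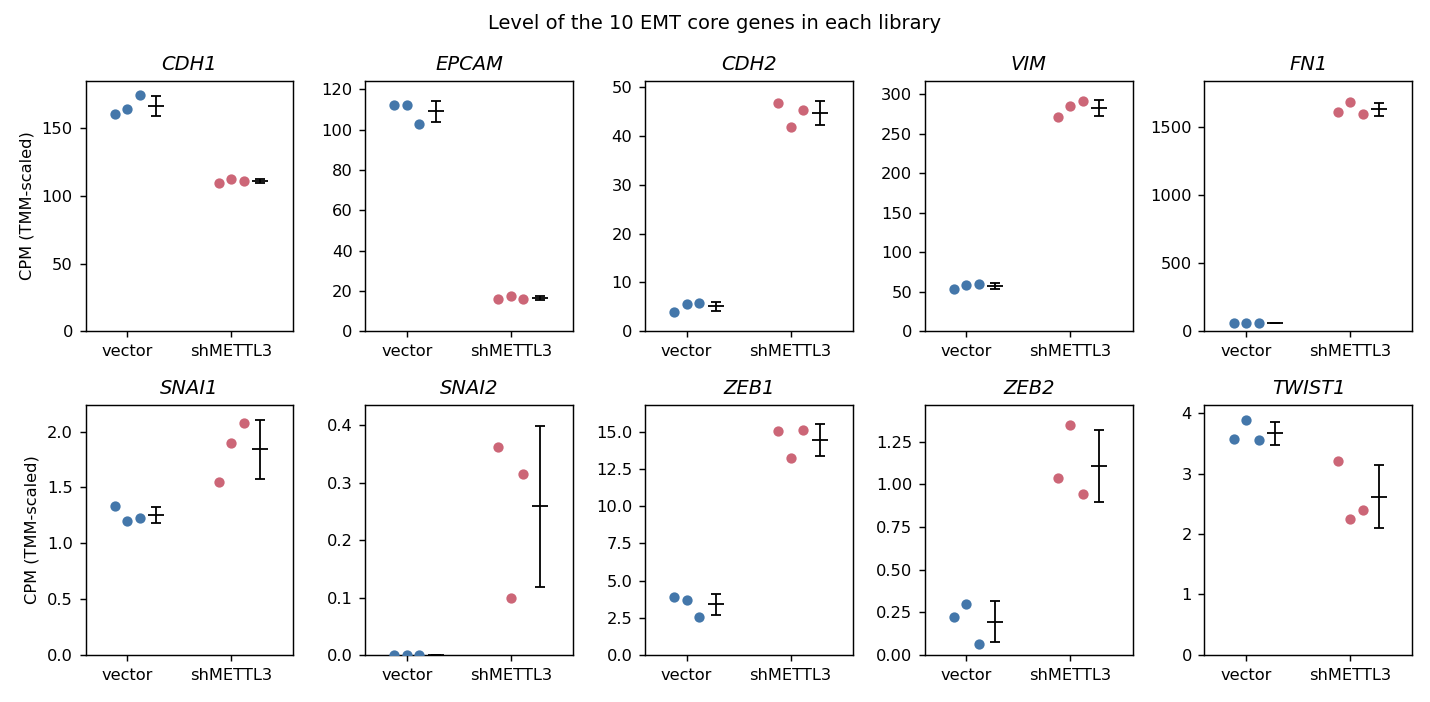
Scaled counts per 1000000 counts of the library (CPM) of the 10 EMT core genes in each of the 3 vector and 3 shMETTL3 libraries; each panel has its own axis from 0, points are libraries, and the bar beside them is the mean ± SD. The groups do not overlap in any panel, and FN1 has the tallest axis, with shMETTL3 libraries from 1591 to 1685 CPM.

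Promoters of 2 members that rose are shown for their letters around the start of transcription, since FN1 changed most among the members and ZEB1 is the best-covered ZEB factor. Each run gives the 250 bases before a start site of RefSeq on GRCh38.p14, written 5′ to 3′ on the strand of the gene. The FN1 run lies at chr2:215436069-215436318 on the minus strand, and its capitals mark TGACGTCA, the cyclic AMP response element, 183 bases before the start. The ZEB1 run lies at chr10:31318966-31319215 on the plus strand. Its capitals mark the E-box letters CACCTG and CAGGTG, which begin 242 and 85 bases before the start. This window was chosen among those of ZEB1 because it held the most E-box letters, so the marks follow from that choice.

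FN1: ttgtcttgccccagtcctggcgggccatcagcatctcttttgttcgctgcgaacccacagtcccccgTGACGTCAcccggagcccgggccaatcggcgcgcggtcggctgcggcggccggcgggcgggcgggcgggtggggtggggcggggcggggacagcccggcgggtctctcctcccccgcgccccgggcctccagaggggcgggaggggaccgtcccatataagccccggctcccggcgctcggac
ZEB1: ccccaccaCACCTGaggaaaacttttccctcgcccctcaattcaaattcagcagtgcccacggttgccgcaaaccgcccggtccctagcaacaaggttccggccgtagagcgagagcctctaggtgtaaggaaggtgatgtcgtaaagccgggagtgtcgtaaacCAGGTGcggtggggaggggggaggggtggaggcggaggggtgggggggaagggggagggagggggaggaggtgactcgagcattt

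CACCTG and CAGGTG are the same site read on opposite strands, and TGACGTCA reads the same on both. Over the windows of 300 bases in the reference table (250 bases before to 50 after each start), 20.6% of 35116 promoters held the E-box letters and 1.85% held TGACGTCA. Windows were given for 5 members, namely VIM, CDH2, FN1, ZEB1 and ZEB2. The E-box letters were in 2 of the 7 ZEB1 windows and in none of the windows of VIM, CDH2, FN1 and ZEB2. TGACGTCA was searched after the letters of the windows had been seen. A match in these letters is a description and not a binding site.

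METTL3 itself, the check of the knockdown, stood at 49.9 ± 0.676 CPM (SD, n = 3) in vector and 19.4 ± 0.525 CPM (SD, n = 3) in shMETTL3 libraries (log2 fold change -1.36, adjusted p = 4.57e-16, edgeR), and no library overlapped the other group. Library totals ran from 14931426 to 19108928 counts. CPM values are scaled by edgeR's TMM method, and 3 counts, taken as the floor of detection for counting error only, correspond to 0.150 to 0.189 CPM in a library. The labelled epithelial cell type was checked by KRT7, KRT8, KRT18 and KRT19, all tested, whose sum ran from 9698 to 10356 CPM in vector and from 5028 to 5472 CPM in shMETTL3 libraries. KRT8 and KRT18, which carried most of the sum, fell (log2 fold changes -1.09 and -1.35), as did KRT19 (-2.41, to 12.7 CPM), whereas KRT7 rose from 1014 to 1241 CPM (0.29). The sum of 10 alveolar type 2 markers was 119 to 140 CPM in vector and 106 to 108 CPM in shMETTL3 libraries, mostly from ABCA3 (85.9 and 71.8 CPM) and ETV5 (35.4 and 31.7 CPM). Of these markers, 5 were tested, and ABCA3, ETV5 and SFTPD (-3.24) fell while SFTPB rose (3.05, from at most 3 counts in a vector library), having passed the filter only through the shMETTL3 libraries. With library size alone, ABCA3 (-0.080) and ETV5 (0.014) were not called, and ETV5 also lost its call with upper-quartile scaling (-0.14). SFTPA1 was at 0 throughout and SFTPC had at most 6 counts in a library.

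CDH1 encodes E-cadherin, the calcium-dependent adhesion protein of adherens junctions, and spans 68771195 to 68869440 of chromosome 16 (plus strand) in GRCh37, the authors' build (hg19). Its level was 160, 164 and 174 CPM in vector replicates 1 to 3 and 109, 113 and 111 CPM in shMETTL3 replicates 1 to 3. All knocked down libraries were below all vector libraries and lay closer to each other than the vector libraries did. The mean fell from 166 ± 7.30 to 111 ± 1.70 CPM (SD, n = 3 each), a log2 fold change of -0.58 (standard error 0.052, adjusted p = 1.18e-10, edgeR). Among the genes tested, 2622 had a larger fall.

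EPCAM encodes the epithelial cell adhesion molecule, a surface glycoprotein of simple epithelia. The gene spans 47572297 to 47614740 of chromosome 2 (plus strand). The vector libraries held 112, 112 and 103 CPM and the shMETTL3 libraries 15.7, 17.4 and 16.0 CPM. The groups were far apart, and the spread within each was small beside the gap. EPCAM was 6.66-fold lower after METTL3 knockdown (109 ± 5.32 against 16.4 ± 0.867 CPM, log2 fold change -2.73, standard error 0.066, adjusted p = 7.80e-23, edgeR), and 141 genes had a larger fall. Both epithelial adhesion genes thus fell, and the 95% interval of the log2 fold change of EPCAM (-2.86 to -2.60) lay below that of CDH1 (-0.68 to -0.48).

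CDH2 encodes N-cadherin, the cadherin of neural and mesenchymal cells. The gene spans 25512843 to 25757910 of chromosome 18 (minus strand). It had 71, 94 and 93 counts in vector and 901, 840 and 721 counts in shMETTL3 libraries. N-cadherin mRNA was present but scarce in vector cells and was higher in every knocked down library. The mean rose from 5.09 ± 0.987 to 44.7 ± 2.47 CPM (SD, n = 3 each), or 8.77-fold (log2 fold change 3.14, standard error 0.10, adjusted p = 4.18e-20, edgeR).

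VIM encodes vimentin and spans 17270240 to 17279592 of chromosome 10 (plus strand). Its level was 53.2, 59.1 and 60.3 CPM in vector and 272, 285 and 291 CPM in shMETTL3 libraries. Vector cells already expressed VIM above most genes, and all knocked down libraries were higher. The rise was 4.91-fold (log2 fold change 2.30, standard error 0.057, adjusted p = 1.44e-22, edgeR). VIM-AS1, an antisense RNA that overlaps 12.7% of the exon bases of VIM on the other strand, had 7, 1 and 7 counts in vector and 17, 19 and 20 counts in shMETTL3 libraries. These counts are few beside the 4623 to 5720 counts of VIM in the knocked down libraries. Whether the counting used strand is not given in the sources used here, so reads of both genes cannot be told apart where they overlap. VIM overlaps a further antisense transcript (12.0% of its exon bases) that had no row of counts, so the VIM-AS1 counts do not cover it. CDH1, CDH2, SNAI2 and TWIST1 each overlap an antisense transcript too, which was not analysed here. ZEB2 overlaps ZEB2-AS1 on the other strand and the pseudogene AC009951.1 on its own strand (4.97% and 11.3% of its exon bases), and both had 0 counts in every library.

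FN1 encodes fibronectin, which cells assemble into matrix fibrils through integrin receptors. The gene spans 216225163 to 216300796 of chromosome 2 (minus strand). The vector libraries held 1076, 1025 and 1012 counts, or 59.9, 61.4 and 62.0 CPM. The shMETTL3 libraries held 31115, 33787 and 25267 counts, or 1611, 1685 and 1591 CPM. Both groups were tight, with coefficients of variation of 1.74% in vector and 3.03% in knocked down libraries. The mean rose from 61.1 ± 1.06 to 1629 ± 49.4 CPM, or 26.7-fold (log2 fold change 4.74, standard error 0.058, adjusted p = 4.31e-29, edgeR). This adjusted p was the smallest of all 15125 genes tested, while 53 genes had a larger fold rise.

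**Figure D2:**
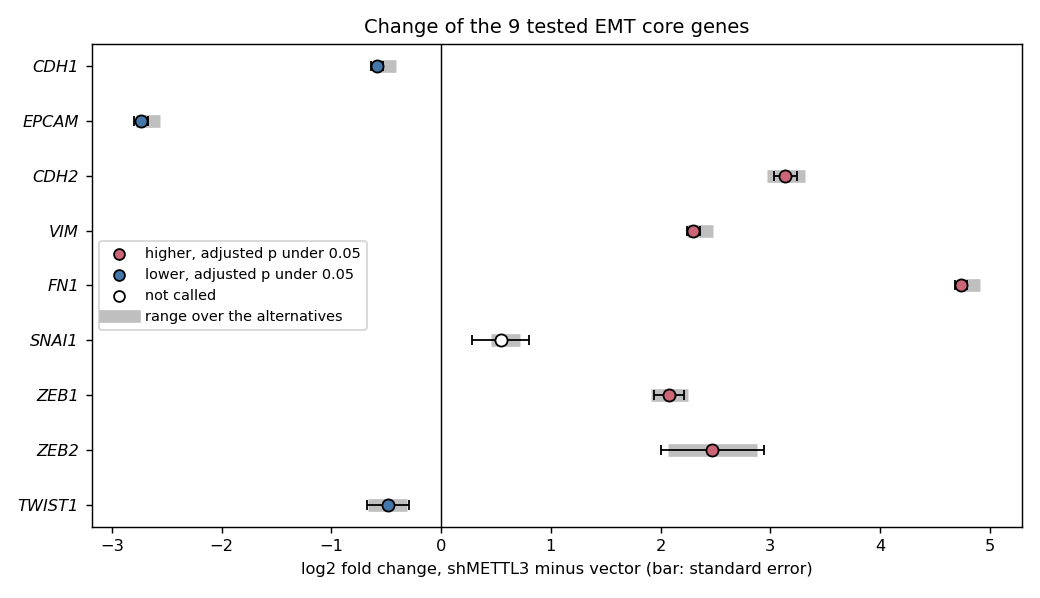
Log2 fold change (shMETTL3 minus vector) of the 9 tested EMT core genes with its standard error; filled circles are called at an adjusted p under 0.05, and grey bands give the range over the processing alternatives. FN1 and CDH2 rose most, EPCAM fell most, and SNAI1 is the open circle at 0.54.

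Among the transcription factors, levels were low throughout, and of the 4 that were tested ZEB1 and ZEB2 rose. ZEB1 encodes a zinc finger and homeodomain repressor of CDH1 and spans 31607424 to 31818742 of chromosome 10 (plus strand). It had 70, 62 and 42 counts in vector and 290, 265 and 240 counts in shMETTL3 libraries. Vector replicate 3 was the lowest of all, and every knocked down library was above every vector library. ZEB1 rose 4.26-fold, from 3.40 ± 0.717 to 14.5 ± 1.07 CPM (log2 fold change 2.08, standard error 0.14, adjusted p = 2.45e-13, edgeR). ZEB1-AS1, which overlaps 4.58% of the exon bases of ZEB1 on the other strand, went the other way, with 107, 111 and 75 counts in vector and 77, 70 and 78 counts in shMETTL3 libraries. Its groups overlapped, although its log2 fold change of -0.49 was called (adjusted p = 0.0109, edgeR), a call lost with library size alone (-0.32).

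ZEB2, the paralogue of ZEB1, spans 145121931 to 145278624 of chromosome 2 (minus strand). It had 4, 5 and 1 counts in vector and 20, 27 and 15 counts in shMETTL3 libraries. ZEB2 was at the edge of detection in vector cells and passed the filter on low counts only through the knocked down libraries, so that a gene kept in this way had to differ. It rose by 2.47 on the log2 scale (standard error 0.47, adjusted p = 3.63e-05, edgeR), with 0.194 ± 0.122 CPM in vector and 1.11 ± 0.211 CPM in shMETTL3 libraries. The ratio of ZEB1 to ZEB2 counts per length was 52.9, 37.5 and 127 in vector and 43.8, 29.7 and 48.4 in knocked down libraries, and these ranges overlapped. With the longest transcript in place of all exons, the ratios were smaller, from 19.0 to 64.4 in vector and from 15.0 to 24.5 in knocked down libraries. ZEB1 thus remained the more abundant ZEB mRNA in every library.

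SNAI1 encodes Snail, a zinc finger repressor of CDH1 that is short-lived as a protein. The gene spans 48599517 to 48605423 of chromosome 20 (plus strand). It had 24, 20 and 20 counts in vector and 30, 38 and 33 counts in shMETTL3 libraries. The groups did not overlap, but each library held few counts. Levels were 1.25 ± 0.074 CPM in vector and 1.84 ± 0.266 CPM in shMETTL3 libraries, a log2 fold change of 0.54 whose 95% interval from the standard error of 0.26 ran from 0.033 to 1.05. SNAI1 did not pass the threshold (adjusted p = 0.0669, edgeR). Its call depended on the processing, since it passed under scaling by library size alone (log2 fold change 0.72), under offsets for GC content and length with or without the replicate block (0.67 in both) and with at least 10 counts in every library (0.56).

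SNAI2 encodes Slug, a close relative of Snail, and spans 49830157 to 49834299 of chromosome 8 (minus strand). It had 0 counts in all vector libraries and 7, 2 and 5 counts in shMETTL3 libraries. Its counts were too few to pass the filter, so it is the member that was not tested. Summed over the libraries, 14 counts against 0 made it at least 4.30-fold higher on TMM-scaled totals, set against a floor of 3 counts over the vector group. SNAI2 was called higher when no filter was used, but its counts lie in the shMETTL3 group alone, so that call is no independent support.

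TWIST1 encodes a helix-loop-helix factor of mesoderm and spans 19060614 to 19157259 of chromosome 7 (minus strand). Its level was 3.57, 3.89 and 3.56 CPM in vector and 3.21, 2.24 and 2.39 CPM in shMETTL3 libraries. TWIST1 was the member that moved against the other called EMT factors, and shMETTL3 replicate 1 lay close to the vector libraries. The mean was 3.67 ± 0.191 CPM in vector and 2.62 ± 0.520 CPM in shMETTL3 libraries, or 71.3% of the vector level (log2 fold change -0.48, standard error 0.19, adjusted p = 0.0260, edgeR). The call was lost in 7 of 16 alternatives, namely DESeq2 (-0.49), the GC content and length offsets with or without the replicate block (-0.38 in both), library size alone (-0.31), and without shMETTL3 replicate 2 (-0.37), shMETTL3 replicate 3 (-0.43) or vector replicate 2 (-0.45). For each of the 10 members, an exact permutation test (two-sided, on log2(CPM + 0.1)) gave p = 0.1, which is the lowest value possible with 3 against 3.

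Levels between genes were compared as CPM per kilobase of exons. In vector cells, the epithelial genes led, with EPCAM at 44.9 and CDH1 at 27.4 CPM per kilobase, ahead of VIM at 11.1 and FN1 at 3.55. TWIST1 at 1.84 was the most abundant of the EMT factors, followed by SNAI1 at 0.735, with CDH2 at 0.594 between SNAI1 and ZEB1 at 0.392. ZEB2 stood at 0.00744 CPM per kilobase and SNAI2 at 0, and each neighbour in this order was separated from the next in all 3 libraries.

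In METTL3-knocked down cells, FN1 at 94.6 and VIM at 54.6 CPM per kilobase led, ahead of CDH1 at 18.3, EPCAM at 6.74 and CDH2 at 5.20. CDH1 thus remained above CDH2 in every library. ZEB1 at 1.67, TWIST1 at 1.31 and SNAI1 at 1.08 followed, and the ranges of ZEB1 and TWIST1 and those of TWIST1 and SNAI1 overlapped. SNAI2 at 0.0790 and ZEB2 at 0.0424 were last and were not separated. With the length of the longest transcript in place of all exons, CDH2 passed SNAI1 in vector cells (1.27 against 0.735), and in knocked down cells CDH2 at 11.1 and EPCAM at 10.6 were not separated. On that length ZEB1 at 2.31, TWIST1 at 1.61 and SNAI1 at 1.08 were separated in the knocked down libraries, and ZEB2 at 0.116 stood above SNAI2 without being separated from it.

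**Figure D3:**
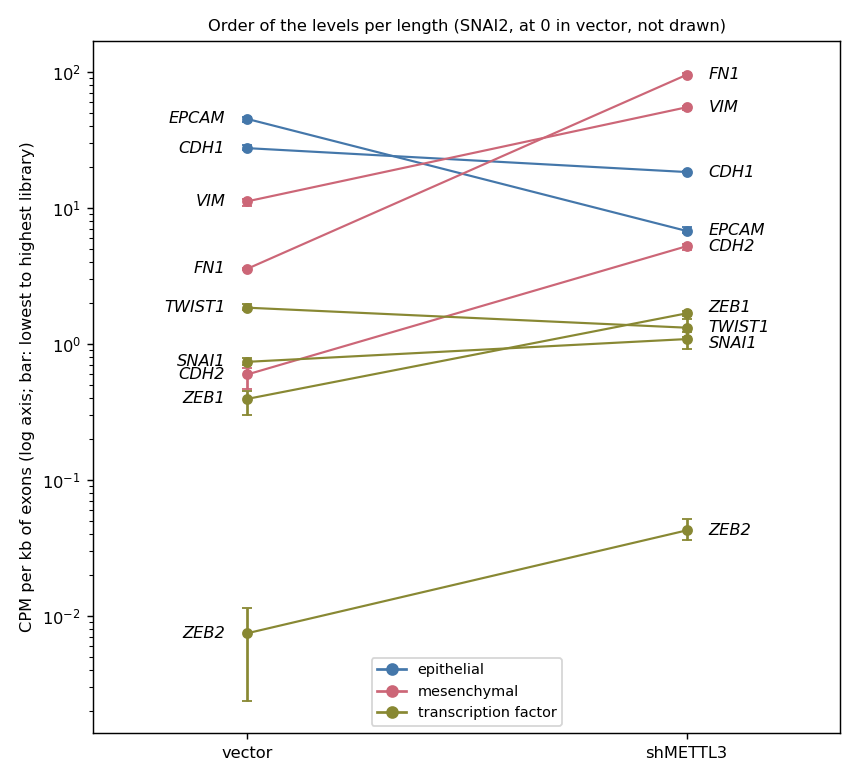
Level of the EMT core genes in vector and shMETTL3 cells in CPM per kilobase of exons on a log axis; points are means of 3 libraries and bars run from the lowest to the highest library. The lines of FN1 and VIM cross those of CDH1 and EPCAM, with FN1 going from 3.55 to 94.6 and EPCAM from 44.9 to 6.74, while CDH2 rises from 0.594 to 5.20 and stays below both epithelial genes; SNAI2, at 0 in vector, is not drawn.

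Set among the 14027 tested genes with a length, FN1 went from above 50.4% of genes in vector to above 97.9% in knocked down cells, and VIM from 77.4% to 96.2%. CDH2 moved from 18.8% to 59.7%. EPCAM went from 94.6% to 66.5%, whereas CDH1 moved only from 90.6% to 86.5%. CDH1 therefore remained among the more abundant mRNAs of the knocked down cells.

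Ratios inside a library do not depend on scaling. The log2 ratio of CDH2 to CDH1, with counts per kilobase of exons, was -5.84, -5.36 and -5.43 in vector and -1.73, -1.93 and -1.79 in shMETTL3 libraries. E-cadherin mRNA exceeded N-cadherin mRNA in all libraries, by less after knockdown. The log2 ratio of VIM to CDH1 was -1.36, -1.24 and -1.30 in vector and 1.55, 1.57 and 1.62 in shMETTL3 libraries, so the order of these genes turned over.

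The genes around the members were grouped into lists by function and described by the same fit, without a test of the lists. Over all genes tested the median log2 fold change was 0.0022. Of 24 genes of the epithelial programme (splicing regulators, transcription factors, and junction and polarity proteins), 16 were tested, 13 fell and 1 rose, with a median of -1.31. CGN, which encodes the tight junction protein cingulin, fell by 3.28 on the log2 scale (13.8 ± 1.02 to 1.40 ± 0.183 CPM). OVOL2, a transcription factor of epithelial identity, fell by 2.42. SPINT1, a membrane-bound protease inhibitor of epithelial cells, rose (log2 fold change 0.96). The count of rises in this list was 2 in place of 1 without shMETTL3 replicate 2, without vector replicate 1, 2 or 3 and with no filter, and 3 with library size alone. The epithelial side of the members thus moved with most of this list, with EPCAM (-2.73) falling by more than the list median and CDH1 (-0.58) by less than any called fall of the list, the smallest being that of SPINT2 (-0.76).

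Of 22 mesenchymal programme genes, 16 were tested, 11 rose and 2 fell, with a median of 0.88. SPARC, a matrix glycoprotein gene, rose by 4.62 on the log2 scale from 4 to 117 counts summed over 3 libraries. SPARC and THY1 passed the filter only through the shMETTL3 libraries, as ZEB2 did, and with at least 10 counts in every library 10 genes rose. COL5A1, a fibrillar collagen gene, had 76, 87 and 80 counts in vector and 1630, 1772 and 1378 counts in shMETTL3 libraries (log2 fold change 4.18). Contractile genes of the list moved both ways, since TPM2 (log2 fold change 1.45), TPM1 (0.86) and TAGLN (0.86) rose and MYL9 was not called. ACTA2 (-0.32) and CALD1 (-0.19) fell, but neither was called with scaling by library size alone (-0.14 and -0.012). The count of falls was also 0 without shMETTL3 replicate 1, and 1 without vector replicate 1 or 3. The list did not move as a block, since CD44 and LOX were among the tested genes that were not called.

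Of 14 partial EMT genes, 11 were tested, 9 rose and 1 fell, with a median of 1.13. TNC, which encodes the matrix protein tenascin-C, rose by 3.41 on the log2 scale. LAMB3, a laminin subunit gene, fell (-0.66). SLC4A11, a transporter gene used as a marker of high plasticity, was lower at 7.33 ± 0.647 CPM in shMETTL3 against 13.4 ± 0.285 CPM in vector libraries (log2 fold change -0.88, adjusted p = 6.08e-08, edgeR).

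Other EMT transcription factors moved both ways, as the members did. Of 16 listed, 12 were tested, 6 rose and 4 fell, with a median of 0.28. The median depended on the processing, at 0.73 with no filter and 0.45 with library size alone, and on single libraries, at 0.52 without shMETTL3 replicate 1 and 0.49, 0.58 and 0.54 without vector replicates 1, 2 and 3. KLF8, a Krüppel-like repressor, had 0, 4 and 0 counts in vector and 16, 18 and 16 counts in shMETTL3 libraries. It passed the filter only through the latter, so it had to differ, and with at least 10 counts in every library 5 genes rose. FOXQ1, a forkhead factor, rose from 5.22 ± 0.711 to 16.2 ± 1.56 CPM. FOXC1, the most abundant factor named here, fell from 268 ± 7.45 to 101 ± 5.05 CPM (log2 fold change -1.42). SNAI3, the third SNAI paralogue, fell (-1.29), while its relatives SNAI1 and SNAI2 had more counts in the knocked down libraries.

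The cofactors through which SNAI and ZEB proteins act and the enzymes that turn them over moved both ways, each by less than 1 on the log2 scale. Of 16 genes, all tested, 4 rose and 5 fell, with a median of -0.037 that turned to 0.14 with scaling by library size alone. The count of rises depended on the processing, at 2 with the GC content and length offsets (with or without the replicate block), 7 with library size alone and 1 at an adjusted p under 0.01. The corepressor genes SIN3A and CTBP2 each fell by 0.98 on the log2 scale. The largest rises were those of BTRC, which marks Snail for degradation (0.20), and HDAC2, a histone deacetylase (0.19), whose groups overlapped.

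Catenins link cadherins to actin. Of 6 genes, which were catenin genes and the vinculin gene VCL, 5 were tested, 1 rose and 3 fell, with a median of -0.15. VCL, which is not a catenin gene, was among those that fell (-0.15), and its value was the median. The median turned to 0.021 with scaling by library size alone (2 higher) and was -0.33 with no filter. JUP, which encodes plakoglobin, fell from 618 ± 64.4 to 285 ± 8.96 CPM (log2 fold change -1.12), and CTNND1, which encodes p120-catenin and stabilises cadherins, fell by 0.48 on the log2 scale. CTNNB1, which encodes beta-catenin, rose by 0.31. CTNNA1, the alpha-catenin gene, was not called (0.020).

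Beyond CDH1 and CDH2, the other classical cadherins split evenly. Of 16 genes, 8 were tested, 4 rose and 4 fell. Their median of -0.025 took the opposite sign with library size alone, with the GC content and length offsets (with and without the replicate block) and without shMETTL3 replicate 1. CDH5, vascular endothelial cadherin, had 2 counts in the vector group and 88 in the shMETTL3 group, a ratio of 40.6 on TMM-scaled totals with a 95% counting interval from 10.9 to 340.4. CDH4, retinal cadherin, rose by 2.91 on the log2 scale. CDH5 passed the filter only through the shMETTL3 libraries, and CDH10 and CDH18 only through the vector libraries. With at least 10 counts in every library, 2 rose and 2 fell. CDH10 went the other way, with 41, 38 and 31 counts in vector and 0 in every shMETTL3 library, and was at least 39.8-fold lower on the same scale against a floor of 3 counts over the group. CDH19 fell by 3.20 on the log2 scale. CDH2 was thus not the sole cadherin gene to rise, and CDH1 was not the sole one to fall.

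TGF-beta is a classical inducer of EMT. Of 9 ligand, receptor and SMAD genes, all tested, 5 rose and 2 fell, with a median of 0.21. The median was 0.38 with library size alone (7 higher) and 0.13 with the GC content and length offsets (6 higher). TGFB2 rose from 12.8 ± 0.706 to 69.4 ± 2.86 CPM (log2 fold change 2.44). SMAD7, the inhibitory SMAD and a target of the pathway, rose by 1.21 on the log2 scale. The ligand gene TGFB3 (-0.73) and the signal transducer SMAD2 (-0.41) fell, and TGFB1 was not called (0.0023).

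Around fibronectin, 5 of 7 receptor and cross-linker genes were tested, 3 rose and 1 fell, with a median of 0.53. SDC4, a syndecan that binds fibronectin, rose by 1.32 on the log2 scale. ITGA5, the alpha subunit of the fibronectin receptor, which is also on the partial EMT list, rose by 0.69. TGM2, a transglutaminase that cross-links fibronectin, fell from 1687 ± 136 to 1017 ± 15.6 CPM (log2 fold change -0.73). The integrin genes ITGA4 and ITGB3 had too few counts to be tested. ITGA4 had 1 count in the vector group and 36 in the shMETTL3 group, a ratio of 33.2 on TMM-scaled totals (95% counting interval 5.59 to 1348), and ITGB3 had 2 and 32, a ratio of 14.8 (3.77 to 127). Both the filter and single vector libraries bear on the count of rises, which was 5 without a filter and 5 without vector replicate 1, 2 or 3.

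The list genes closest to each member were sought among 97 candidates, by the Euclidean distance of log2(CPM + 0.1) minus the vector mean over the 6 libraries. VIM was nearest to TGFB2 (0.342), CDH1 to LAMB3 (0.155) and CDH2 to TNC (0.441). EPCAM was nearest to CDH19 (0.787) and FN1 to COL5A1 (1.02). The distance was thus smallest for CDH1 and largest for FN1. It mainly compares sizes of change, and few candidates changed as much as FN1, so this order does not rank likeness. SNAI1 was nearest to CDH11 (0.280) and TWIST1 to SMAD2 (0.421). Both ZEB genes were nearest to CDH6, at 0.361 for ZEB1 and 0.725 for ZEB2.

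Markers of other cell types were measured beside these changes. The sum of 8 fibroblast markers was 6.96 to 10.1 CPM in vector and 15.4 to 16.5 CPM in shMETTL3 libraries, with 7 of 8 above the floor in some library. Of the 3 tested, COL1A1 (log2 fold change 0.90) and THY1 (3.65) rose and LUM (0.46) was not called. COL1A2 had 3 counts in 1 library and 0 in the others. Of the 8 markers, 5 are also on the mesenchymal list. Of 3 endothelial markers in the table, CDH5 was detected above the floor, VWF was at 0, and the sum was 0 to 0.123 CPM in vector and 1.40 to 1.95 CPM in shMETTL3 libraries. Of 4 leukocyte markers, CD14 was above the floor (log2 fold change 3.55), CD3E was at 0, and the sum was 0.299 to 0.981 CPM in vector and 5.84 to 6.74 CPM in shMETTL3 libraries. Their part in the changes of the members was not tested.

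METTL3 methylates adenosines within short motifs of which GGACT is the commonest in textbook descriptions. The canonical transcripts of the members in the GRCh37 annotation held from 0.459 (SNAI2) to 2.35 (SNAI1) GGACT motifs per kilobase. The median of tested genes was 0.915, with quartiles at 0.538 and 1.38, and 6 of 10 members lay above it. The members that fell, CDH1 at 1.25, EPCAM at 1.29 and TWIST1 at 1.23, and those that rose, FN1 at 0.834, VIM at 0.929, CDH2 at 1.49, ZEB1 at 0.505 and ZEB2 at 0.648, had densities whose ranges overlapped. No m6A was measured in these libraries.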

How the data were processed

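Total RNA of A549 cells was sequenced in 3 vector and 3 shMETTL3 libraries. The authors deposited whole-number counts per gene, without normalization. Per the submitters' processing notes, the tools were cutadapt 3.0, HISAT2 2.2.1, SAMtools 1.13, HTSeq 0.13.5 and DESeq2 on hg19. The annotation and strand setting are not given in the sources used here. The members and lists were chosen with earlier results of these data known, and SLC4A11 because the study names it.

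Counts were analysed in R 4.3.3 with edgeR 4.0.16 (TMM, filterByExpr, glmQLFit and glmQLFTest on the group, Benjamini-Hochberg adjustment over 15125 genes). Standard errors came from the coefficient and the F statistic. Of each list, up to 2 called genes with the largest rise and 2 with the largest fall were named, plus the member's nearest gene. The antisense genes were named after their values were seen. So were CD44, LOX, CTNNA1, TGFB1, LUM, COL1A2, SFTPC, ETV5, KRT8, CDH18, SPINT2, ITGA4, ITGB3, TPM1, TPM2, TAGLN, MYL9 and VCL. Levels used exon lengths of the GENCODE annotation of GRCh37, promoters RefSeq windows of GRCh38.p14; the promoters shown replace planned ones of CDH1 and EPCAM, and proteins were not used. Symbols matched for 38489 rows by current and 858 by older name. Pairs of libraries within a group differed by more than sampling noise (chi-square per degree of freedom 2.79 to 7.50). Alternatives were RLE, upper-quartile and no scaling factor, other filters, DESeq2 1.42.0, limma-voom (limma 3.58.1), a replicate block, loess offsets for GC content and length (span 0.3), each library left out, and stricter thresholds. A gene that the naming rule selects is not reported here. The fits were tested on simulated counts in which few genes changed, which does not test the scaling where most genes change.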

Additional observations from a re-analysis of the deposited data

How the results depend on the processing

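VIM, CDH1, CDH2, EPCAM, FN1 and ZEB1 kept their direction and their call in all 16 alternative fits, which do not include the stricter thresholds. ZEB2 had a value in 15, and these do not bear on how it passed the filter, since the minimum of 10 counts in every library removes it. Their log2 fold changes ran from 4.71 to 4.91 for FN1, 2.97 to 3.31 for CDH2, 2.24 to 2.47 for VIM, 1.91 to 2.25 for ZEB1, 2.07 to 2.88 for ZEB2, -2.78 to -2.56 for EPCAM and -0.61 to -0.41 for CDH1. SNAI1 passed the threshold in 4 alternatives and TWIST1 lost its call in 7, at the values given with each gene; the cause was not tested. Over all 16 alternatives, edgeR, DESeq2 or limma gave adjusted p from 0.0163 to 0.183 for SNAI1 and from 0.00907 to 0.152 for TWIST1. No member changed sign. Between 6 and 9 members were called, the highest count including SNAI2 with no filter, and with an absolute log2 fold change of at least 1 a single member, EPCAM, was lower (1 in place of 3), since that minimum removes the smaller falls of CDH1 and TWIST1.

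Deviations of same-numbered libraries from their group means correlated at 0.174, -0.0897 and 0.0886 over 10570 genes. Those of differently numbered libraries ran from -0.224 to 0.129. Replicate numbers thus showed no clear pairing, but deviations within a small group depend on each other, so these values cannot exclude it. With the replicate block, 8 members were called, 5 higher and 3 lower, and 10111 genes in all. With library size alone as the scaling, the median log2 fold change of all genes was 0.18. The share of higher genes among those called was 65.8% in place of 50.6%, and 0 in place of 2 mesenchymal programme genes were called lower. The values of GC content and length covered 92.7% of tested genes. SNAI1, SNAI2, ZEB2 and TWIST1 held at most 65 counts in any library.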
